A study of Homo sapiens with 60 samples.

Results

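The 38 genes described here encode proteins that drive entry into mitosis, build the spindle, check chromosome attachment and divide the cell. They were chosen by name as a list of mitosis and G2/M genes, and each symbol was mapped to its Ensembl identifier in the deposited count table. All 38 were found among its 60675 gene identifiers, and all 38 were among the 16445 genes with enough counts to be tested. The cells were HT29, a human colorectal adenocarcinoma line, sequenced as bulk RNA after 24 h of treatment. The vehicle group, given 0.1% DMSO, had 3 libraries.

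The 6 extracts with 3 libraries at each of 3 doses were of the following kinds. Palmul-tang and Sibjeondaebo-tang are multi-herb formulas, given as water extracts in set 8 of the sample names. Poria Cocos (Poria) and Atractylodis Rhizoma (Atractylodes) were ethanol extracts in set 9. Glycyrrhizae Radix, or licorice root (Glycyrrhiza), and Panax Ginseng (Ginseng) were ethanol extracts in set 10. Glycyrrhiza was given at 350 (high), 70 (medium) and 14 µg/mL (low), the first being its IC20 under the dose rule of the series, and each of the other 5 extracts at 500, 100 and 20 µg/mL. An ethanol extract of Angelicae Gigantis Radix (Angelica, set 11) had 1 library at each of 320, 64 and 12.8 µg/mL. The sample titles of vehicle and extracts alike carry the label BatchC. The vehicle libraries carry no set number, so in every comparison with vehicle the set and the treatment cannot be told apart. Nothing in the labels states that the replicates were separate cultures, and the spread behind the p-values may then be technical only. All cells were of 1 line, and the solvent of the extract groups is not stated in the labels.

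As background, cells cross from G2 into mitosis when CDK1, bound to cyclins A and B, is switched on by CDC25 phosphatases. The transcription factor FOXM1 and the MuvB complex raise the transcription of most of these genes late in the cycle, through promoter letters known as the cell cycle genes homology region (CHR) and through CCAAT boxes bound by NF-Y. The spindle checkpoint holds cells until chromosomes are attached, after which CDC20 and the anaphase promoting complex mark securin (PTTG1) and cyclin B for destruction. In a bulk sample, fewer cells in mitosis and less of each RNA per cell cannot be told apart.

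Levels are given as CPM, counts per 1 M of the library total after TMM scaling. Total counts ran from 19.31 M to 29.62 M per library. As means over the 57 libraries, on library totals without TMM scaling, 10 of 11 colon epithelial markers were above 1 CPM, with KRT8 at 6880 CPM and CDX1 below at 0.918 CPM. Of 6 leukocyte markers 3 were above 1 CPM, LYZ at 1490, CD68 at 6.42 and CD14 at 3.63 CPM. PTPRC, a general leukocyte marker, was at 0.0176 CPM, and CD3E, a T cell marker, at 0.000649 CPM. Above 1 CPM were also 1 of 7 fibroblast markers (COL1A1 at 1.35 CPM) and 1 of 4 endothelial markers (PECAM1 at 1.67 CPM). The mitochondrial share of counts was 8.91% to 11.63% in vehicle and 6.52% to 10.05% in the 54 treated libraries with replicates. Vehicle libraries were also among the shallower, at 19.79 M to 20.88 M.

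The members were abundant. The median of their mean levels over the 57 libraries was 112 CPM, against 16.6 CPM over all tested genes. Per kilobase of exon, TPX2, which nucleates spindle microtubules, led with 97.9 CPM per kb in vehicle. UBE2C, the ubiquitin-conjugating partner of the anaphase promoting complex, followed at 81.6 CPM per kb and MKI67, the Ki-67 protein that coats mitotic chromosomes, at 79.6 CPM per kb. CDC25C, a phosphatase that activates CDK1, was lowest at 4.76 CPM per kb. Levels moved little between conditions. Over the 19 groups with replicates, the distance between the lowest and highest group mean on the log2 scale ran from 0.09 for BUB3, a checkpoint protein at kinetochores, to 0.43 for CDK1. Pseudogene copies drew few reads: the highest count was that of UBE2CP5 at 8.08% of the UBE2C count, and the next was AURKAP1 at 0.27% of the AURKA count.

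**Figure D1:**
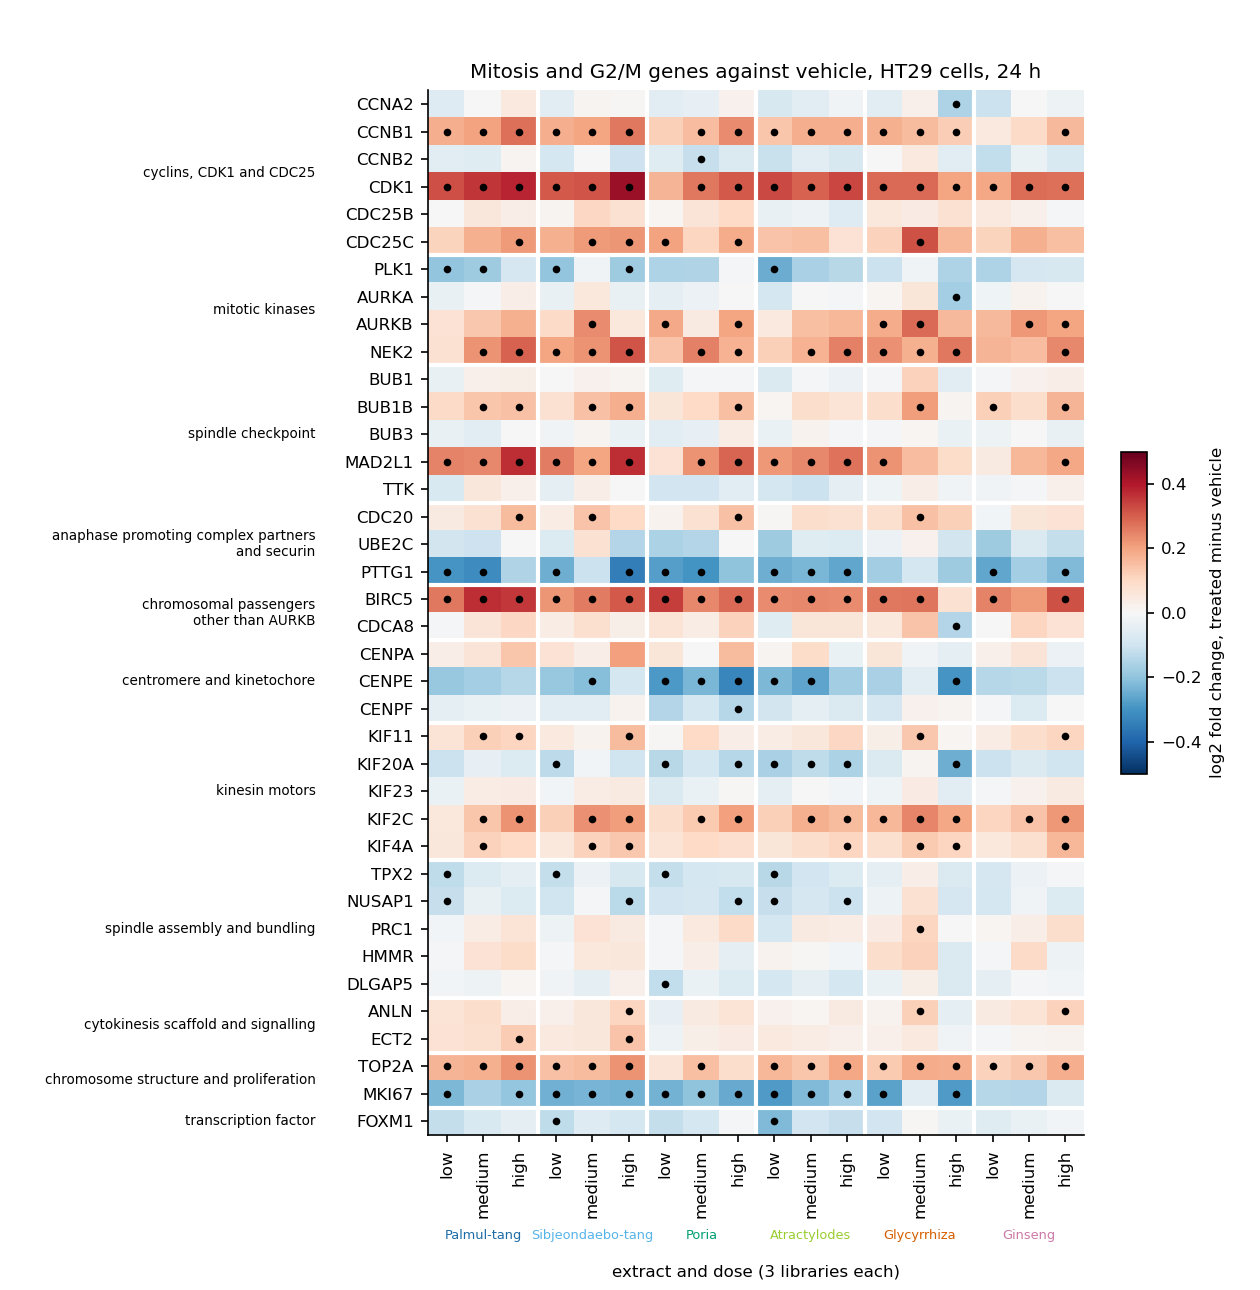
Log2 fold change of each of the 38 members (rows, grouped by role) against vehicle in the 18 groups of 6 extracts at 3 doses (columns), on a colour scale from -0.5 to 0.5; a dot marks an adjusted p below 0.05. Rows such as CDK1 and TOP2A are higher than vehicle across the columns, PTTG1 and MKI67 are lower, and no member moves by more than 0.43 on the log2 scale.

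The clearest dose change was with licorice. At 350 µg/mL Glycyrrhiza, 5 members were lower than at 14 µg/mL and 0 were higher at an adjusted p below 0.05 (edgeR quasi-likelihood test, Benjamini-Hochberg adjusted over all tested genes within the comparison). They were AURKA, BIRC5, CDCA8, KIF20A and HMMR, and they fell by 0.16 to 0.20 on the log2 scale. They are 13.2% of the members, and 10.9% of all tested genes fell and 14.0% rose in the same comparison, so the share of members that fell was near that of all genes. The members' median log2 fold change was -0.042, against -0.010 over all tested genes, and 10 of 38 values were positive.

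AURKA encodes Aurora A, the kinase that matures centrosomes and assembles spindle poles (ENSG00000087586, GRCh38 chromosome 20, 56369389 to 56392337, minus strand). Its level was 166, 158 and 160 CPM in the 3 low dose libraries (161 ± 4.1, SD, n = 3) and 139, 141 and 147 CPM at the high dose (142 ± 4.38). Each high dose library was below each low dose library. The log2 fold change was -0.18 ± 0.04 (SE; adjusted p = 0.00079). KIF20A, a kinesin of the central spindle that is needed for cytokinesis (ENSG00000112984, chromosome 5, 138178719 to 138187715, plus strand), was at 61.6, 62.0 and 62.3 CPM at the low dose and at 55.7, 53.9 and 55.2 CPM at the high dose. These groups also stood apart, with a log2 fold change of -0.17 ± 0.04 (adjusted p = 0.0018). AURKA and KIF20A passed the threshold also without each of the 6 libraries in turn.

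CDCA8 and BIRC5, the passenger subunits among the 38 members other than AURKB, were in this group of 5, while INCENP, a passenger gene of another list, had a log2 fold change of -0.02 (adjusted p = 0.76). Passengers are the subunits that place the Aurora B kinase on centromeres and later at the midzone. CDCA8, the Borealin subunit (ENSG00000134690, chromosome 1, 37692418 to 37709719, plus strand), was at 78.3, 69.1 and 65.7 CPM at the low dose and at 62.0, 60.2 and 63.4 CPM at the high dose. The low dose libraries spread widely, but the groups did not overlap, and the log2 fold change was -0.20 ± 0.05 (adjusted p = 0.0025). BIRC5, or survivin (ENSG00000089685, chromosome 17, 78214186 to 78225636, plus strand), was at 84.9, 75.3 and 82.0 CPM and then at 73.2, 70.7 and 68.8 CPM, a log2 fold change of -0.19 ± 0.07 just inside the threshold (adjusted p = 0.049). HMMR, which encodes a spindle-associated hyaluronan receptor (ENSG00000072571, chromosome 5, 163460203 to 163491945, plus strand), was at 61.8, 61.1 and 62.5 CPM and then at 60.5, 51.9 and 53.6 CPM (log2 fold change -0.16 ± 0.06, adjusted p = 0.03). High dose library 1 of HMMR lay close to the low dose libraries, although below them. Without low dose library 1 the count of members called was 2, with CDCA8 at -0.12 (adjusted p = 0.11), BIRC5 at -0.15 (adjusted p = 0.209) and HMMR at -0.16 (adjusted p = 0.0683). It was 3 without low dose library 3, high dose library 2 or high dose library 3, since BIRC5 and HMMR then missed the threshold, as BIRC5 did without high dose library 1 (-0.21, adjusted p = 0.0588).

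No other member passed the threshold between high and low dose Glycyrrhiza. Over all 38 members the log2 fold changes ran from -0.20 to 0.10. The members of the cyclin group had a median of -0.056 in this comparison with 0 of 6 called, and CCNA2, cyclin A2, was at 133, 128 and 132 CPM at the low dose and at 125, 124 and 118 CPM at the high dose. MKI67 was at 853, 921 and 782 CPM at the low dose and at 874, 841 and 812 CPM at the high dose, within the same range. FOXM1 had a log2 fold change of 0.07.

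More members passed the test against the medium dose. Between 70 and 350 µg/mL Glycyrrhiza, 16 of 38 members fell and 0 rose, which is 42.1% of the members, while 10.3% of all tested genes fell and 13.4% rose. Small changes are easier to call in abundant genes, and the members' median was 112 CPM against 16.6 CPM over all tested genes. Here and in the other comparisons, the shares were not compared with those of genes of like level. The members' median log2 fold change was -0.104, against -0.007 over all tested genes, and 2 of 38 values were positive. This comparison was added after the data had been seen, and it shares the 3 high dose libraries with the comparison above. The mean log2 level of the members, set to 0 at the vehicle mean, was 0.095, 0.090 and 0.099 in the medium dose libraries and -0.002, -0.011 and -0.031 in the high dose libraries. In the low dose group this mean was 0.031 ± 0.015 (SD, n = 3), so the medium dose libraries were the highest of the 3 doses, although 0 members were called between the medium and low doses.

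KIF20A, CDCA8 and AURKA had the lowest adjusted p among these 16. KIF20A was at 66.4, 64.4 and 66.4 CPM in the medium dose libraries, all above the 55.7 CPM of the highest high dose library, with a log2 fold change of -0.26 ± 0.04 (adjusted p = 5.1e-06). CDCA8 was at 78.6, 74.0 and 74.5 CPM at the medium dose, a log2 fold change of -0.29 ± 0.05 (adjusted p = 1.5e-05). AURKA was at 166, 172 and 163 CPM, a log2 fold change of -0.23 (adjusted p = 2.5e-05). For all 3 genes the groups did not overlap. Among the other kinesins, KIF11, which pushes spindle poles apart, fell by 0.13 (adjusted p = 0.013) and KIF23, of the centralspindlin complex, by 0.10 (adjusted p = 0.035).

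Of the spindle checkpoint genes, BUB1B, which encodes the checkpoint protein BubR1 (ENSG00000156970, chromosome 15, 40161023 to 40221136, plus strand), was at 120, 122 and 120 CPM at the medium dose and at 104, 108 and 104 CPM at the high dose. Those groups were well separated, and the log2 fold change was -0.19 (adjusted p = 9.1e-05). BUB1, the kinase that recruits BUB1B to kinetochores, fell by 0.17 (adjusted p = 0.011). CCNA2 (ENSG00000145386, chromosome 4, 121816444 to 121823933, minus strand) was at 141, 139 and 136 CPM at the medium dose, all above the high dose values, and fell by 0.18 (adjusted p = 0.0003).

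All 5 spindle assembly and bundling genes fell from the medium to the high dose. NUSAP1, a microtubule binding protein of the spindle, fell by 0.16 (adjusted p = 0.0024), and HMMR by 0.19 (adjusted p = 0.0084). PRC1, the bundler of midzone microtubules, fell by 0.11 (adjusted p = 0.021), TPX2 by 0.11 (adjusted p = 0.03) and DLGAP5, a spindle protein, by 0.10 (adjusted p = 0.048). ANLN, anillin of the cleavage furrow, was at 214, 208 and 215 CPM and then at 196, 188 and 184 CPM, and fell by 0.17 (adjusted p = 0.00041). MKI67 fell by 0.23 (adjusted p = 0.0047), and CENPE, a kinetochore motor, by 0.24 (adjusted p = 0.011). CDK1, CCNB1, PLK1, NEK2, AURKB, TOP2A and PTTG1 were not among the 16.

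Without Glycyrrhiza high dose library 3, 9 members were called, and 10 to 14 without each other library. KIF20A, CDCA8, AURKA, BUB1B, CCNA2, ANLN, NUSAP1 and MKI67 passed the threshold without each of the 6 libraries in turn. The other 8 missed it without at least 1 library. Without high dose library 3 these were CENPE (-0.19, adjusted p = 0.0868), BUB1 (-0.14, adjusted p = 0.0682), HMMR (-0.16, adjusted p = 0.0533), PRC1 (-0.11, adjusted p = 0.0601), TPX2 (-0.10, adjusted p = 0.0984), KIF23 (-0.08, adjusted p = 0.12) and DLGAP5 (-0.08, adjusted p = 0.166). KIF11 was at -0.10 (adjusted p = 0.118) without high dose library 2.

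**Figure D2:**
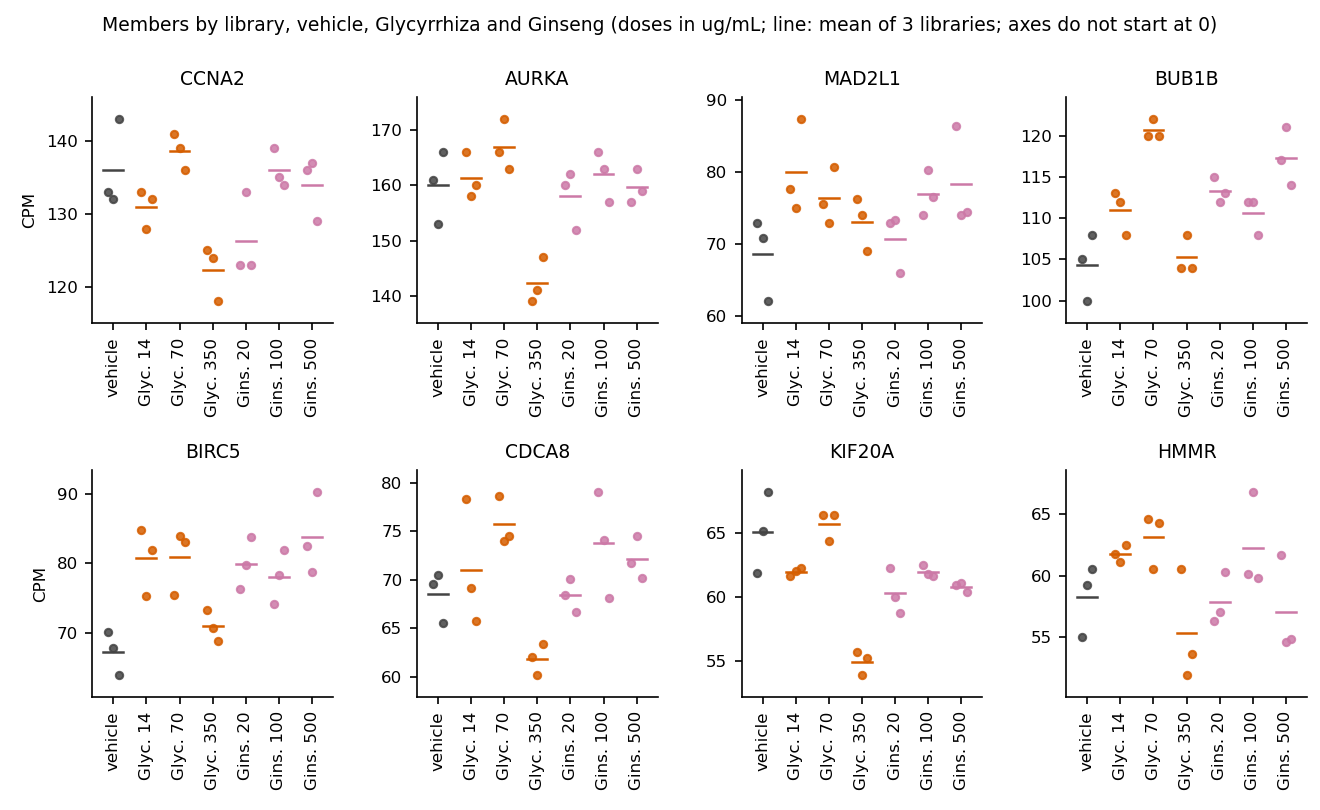
CPM of 8 members in each library of vehicle, Glycyrrhiza at 14, 70 and 350 µg/mL and Ginseng at 20, 100 and 500 µg/mL; points are libraries, lines are group means, and the vertical axes do not start at 0. For AURKA and KIF20A all 3 libraries at 350 µg/mL Glycyrrhiza lie below all libraries of the other groups shown.

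Letters in the promoters were read to show what the members share beyond the list. RefSeq windows of 300 bases (250 before to 50 after the annotated start, GRCh38.p14) matched 31 of 38 members, in 41 windows. Searched on both strands, the CHR letters TTTGAA or TTCGAA stood in 26 of 41 member windows (63.4%) and in 16.4% of all 35116 promoter windows. CCAAT stood in 32 member windows (78.0%) and in 34.6% of all windows, and 19 member windows (46.3%) held 2 or more, against 10.8% of all. Both kinds stood together in 23 member windows (56.1%) and in 6.38% of all. TTTAAA, searched after the windows had been seen, stood in 14 member windows (34.1%) and in 12.2% of all. The FOXM1, AURKA and BIRC5 windows were not analysed here.

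The stretches below run 5′ to 3′ on the gene's strand, from 150 bases before to 20 after the annotated start. Capitals mark the letters named above on either strand (CCAAT reads ATTGG when it lies on the other strand), and a run of capitals longer than these holds overlapping or adjoining matches. The first 5 genes fell between the medium and high doses of Glycyrrhiza, and CCNB1 and KIF2C did not pass that test. They lie at chr1:37692366-37692535 (CDCA8, plus strand), chr5:163460482-163460651 (HMMR, plus strand), chr5:138178962-138179131 (KIF20A, plus strand), chr15:90994516-90994685 (PRC1, minus strand), chr10:128126404-128126573 (MKI67, minus strand), chr5:69167000-69167169 (CCNB1, plus strand) and chr1:44739687-44739856 (KIF2C, plus strand).
CDCA8: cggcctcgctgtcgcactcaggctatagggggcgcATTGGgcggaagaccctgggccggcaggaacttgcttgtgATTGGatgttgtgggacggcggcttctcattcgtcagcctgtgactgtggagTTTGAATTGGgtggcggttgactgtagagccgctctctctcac
HMMR: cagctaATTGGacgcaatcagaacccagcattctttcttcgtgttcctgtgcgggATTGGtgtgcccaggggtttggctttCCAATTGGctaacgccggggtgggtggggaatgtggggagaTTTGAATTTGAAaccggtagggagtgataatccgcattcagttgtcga
KIF20A: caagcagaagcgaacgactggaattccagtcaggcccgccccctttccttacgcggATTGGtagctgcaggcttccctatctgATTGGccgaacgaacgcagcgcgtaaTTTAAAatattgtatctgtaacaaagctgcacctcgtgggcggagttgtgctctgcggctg
PRC1: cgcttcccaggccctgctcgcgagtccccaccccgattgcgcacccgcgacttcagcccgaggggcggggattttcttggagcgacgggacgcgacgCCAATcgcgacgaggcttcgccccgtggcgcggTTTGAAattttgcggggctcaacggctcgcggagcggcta
MKI67: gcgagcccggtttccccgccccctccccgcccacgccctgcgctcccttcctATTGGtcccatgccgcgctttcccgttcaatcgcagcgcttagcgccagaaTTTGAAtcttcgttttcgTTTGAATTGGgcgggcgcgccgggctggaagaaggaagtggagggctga
CCNB1: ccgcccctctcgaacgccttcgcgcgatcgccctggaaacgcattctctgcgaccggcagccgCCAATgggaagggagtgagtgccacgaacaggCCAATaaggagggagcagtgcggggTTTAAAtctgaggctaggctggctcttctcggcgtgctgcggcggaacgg
KIF2C: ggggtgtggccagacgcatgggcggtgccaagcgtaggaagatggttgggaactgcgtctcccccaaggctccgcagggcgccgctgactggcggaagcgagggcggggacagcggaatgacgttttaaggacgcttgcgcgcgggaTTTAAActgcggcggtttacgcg
The CHR letters begin 23 bases before the start in CDCA8 and 20 bases before it in PRC1. HMMR and MKI67 each hold 2 copies, beginning 28 and 22 bases before the start in HMMR and 47 and 29 in MKI67. KIF20A, CCNB1 and KIF2C hold TTTAAA in place of TTTGAA or TTCGAA in the stretch shown, and KIF20A and CCNB1 each have 2 CCAAT boxes. Of the 16 genes that fell, CDCA8, KIF11, KIF23, BUB1B, BUB1, NUSAP1, HMMR, PRC1, DLGAP5, ANLN and MKI67 hold the CHR letters in whole windows. KIF20A, CCNA2 and CENPE lack them, CENPE holds TTTAAA, and AURKA and TPX2 had no window. CDC20, CENPF, CENPA, ECT2, MAD2L1, CDC25C, CDK1, CCNB2, PLK1, TOP2A, CDC25B and KIF4A hold them in a window and were not among the 16. CCNB1, KIF2C, NEK2, PTTG1 and AURKB lack them and were not among the 16 either. A link between the letters and the fall was not tested. A match of letters is a description of the window and shows no binding.

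Licorice and Ginseng share a set number, which allows their high doses to be compared without vehicle, although the doses differ (350 and 500 µg/mL). In Glycyrrhiza, 9 of 38 members (23.7%) were lower than in Ginseng and 0 were higher, while 9.98% of all tested genes were lower and 13.3% higher. AURKA was at 157, 163 and 159 CPM with Ginseng (160 ± 2.89, SD, n = 3), all above the 139 to 147 CPM with Glycyrrhiza, a log2 difference of -0.17 ± 0.04 (adjusted p = 0.0022). CDCA8 was at 71.7, 74.5 and 70.2 CPM with Ginseng, a difference of -0.22 ± 0.05 (adjusted p = 0.00095), and KIF20A at 60.9, 61.1 and 60.4 CPM, a difference of -0.14 ± 0.04 (adjusted p = 0.011). These groups did not overlap either. BIRC5 was at 82.6, 78.7 and 90.3 CPM with Ginseng, a difference of -0.24 ± 0.07 (adjusted p = 0.011).

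ANLN (-0.16, adjusted p = 0.00067), BUB1B (-0.16, adjusted p = 0.0017), CCNA2 (-0.13, adjusted p = 0.0095), MKI67 (-0.21, adjusted p = 0.01) and KIF23 (-0.10, adjusted p = 0.031) made up the rest of the 9. Single libraries decided 4 of them. BIRC5 was at -0.19 (adjusted p = 0.0921) without Ginseng high library 3. CCNA2 was at -0.11 (adjusted p = 0.0814), KIF23 at -0.09 (adjusted p = 0.105) and MKI67 at -0.18 (adjusted p = 0.0576) without Glycyrrhiza high library 3. KIF23 also missed the threshold without Glycyrrhiza high library 2 and Ginseng high libraries 1 and 2, and CCNA2 without Ginseng high library 2 (-0.12, adjusted p = 0.0528).

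Whether the change between high and low dose itself differed between Glycyrrhiza and Ginseng was tested as an interaction. It was lower with Glycyrrhiza for 5 of 38 members (13.2%), against 4.85% of all tested genes, and higher for 0, against 8.08%. CDCA8 differed by -0.28 ± 0.07 (adjusted p = 0.0063), AURKA by -0.20 ± 0.06 (adjusted p = 0.018), CCNA2 by -0.18 ± 0.06 (adjusted p = 0.019) and KIF20A by -0.18 ± 0.06 (adjusted p = 0.038). The fifth was MAD2L1, the checkpoint protein that captures CDC20 (ENSG00000164109, chromosome 4, 120055608 to 120067074, minus strand), with a difference of -0.28 ± 0.09 (adjusted p = 0.032).

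MAD2L1 was at 77.7, 75.0 and 87.4 CPM at low and at 76.3, 74.0 and 69.0 CPM at high dose Glycyrrhiza. With Ginseng it was at 72.9, 73.3 and 65.9 CPM at low and at 86.4, 74.1 and 74.5 CPM at high dose. The 2 dose groups overlap for Glycyrrhiza and stand apart narrowly for Ginseng, and in neither extract alone did the dose change of MAD2L1 pass the threshold. The interaction rested on few libraries. Without Glycyrrhiza low library 1 or Ginseng low library 3 it was called for 1 member, and without Ginseng high library 1 or 2 or Glycyrrhiza high or low library 3 for 3 members. CDCA8, for example, was at -0.20 (adjusted p = 0.0677) without Glycyrrhiza low library 1, and MAD2L1 at -0.21 (adjusted p = 0.167) without Ginseng high library 1.

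With the other extracts the high and low doses differed for at most 1 member. At 500 against 20 µg/mL, 0 of 38 members were called with Palmul-tang (0.152% of all tested genes called), Sibjeondaebo-tang (0.371%), Poria (1.86%) and Ginseng (2.52%), by edgeR. At an unadjusted p below 0.05, 10, 9, 13 and 7 members were higher and 0 lower in these 4 comparisons. DESeq2 called 0, 0, 1 and 0. The members' medians were 0.074, 0.062, 0.053 and 0.052, with 37, 30, 30 and 34 of 38 values positive, and the lowest adjusted p values were 0.13, 0.23, 0.063 and 0.11. The interactions within sets 8 and 9 called 0 members of 38 by edgeR and by DESeq2, with 1 higher and 1 lower member at an unadjusted p below 0.05 in set 8 and 1 higher in set 9 (0.0% and 0.158% of all tested genes called).

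With Atractylodes, 1 member was called, where 3.95% of all tested genes were. PRC1 (ENSG00000198901, chromosome 15, 90966038 to 90995629, minus strand) was at 213, 225 and 203 CPM at the low dose and at 233, 232 and 234 CPM at the high dose. The high dose libraries lay above all low dose libraries, by 0.13 ± 0.04 on the log2 scale (adjusted p = 0.031). The call was lost without Atractylodes high library 1 (0.13, adjusted p = 0.0914), 2 (0.13, adjusted p = 0.0696) or 3 (0.13, adjusted p = 0.0962), and without low library 1 (0.13, adjusted p = 0.0809) or 3 (0.09, adjusted p = 0.29).

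**Figure D3:**
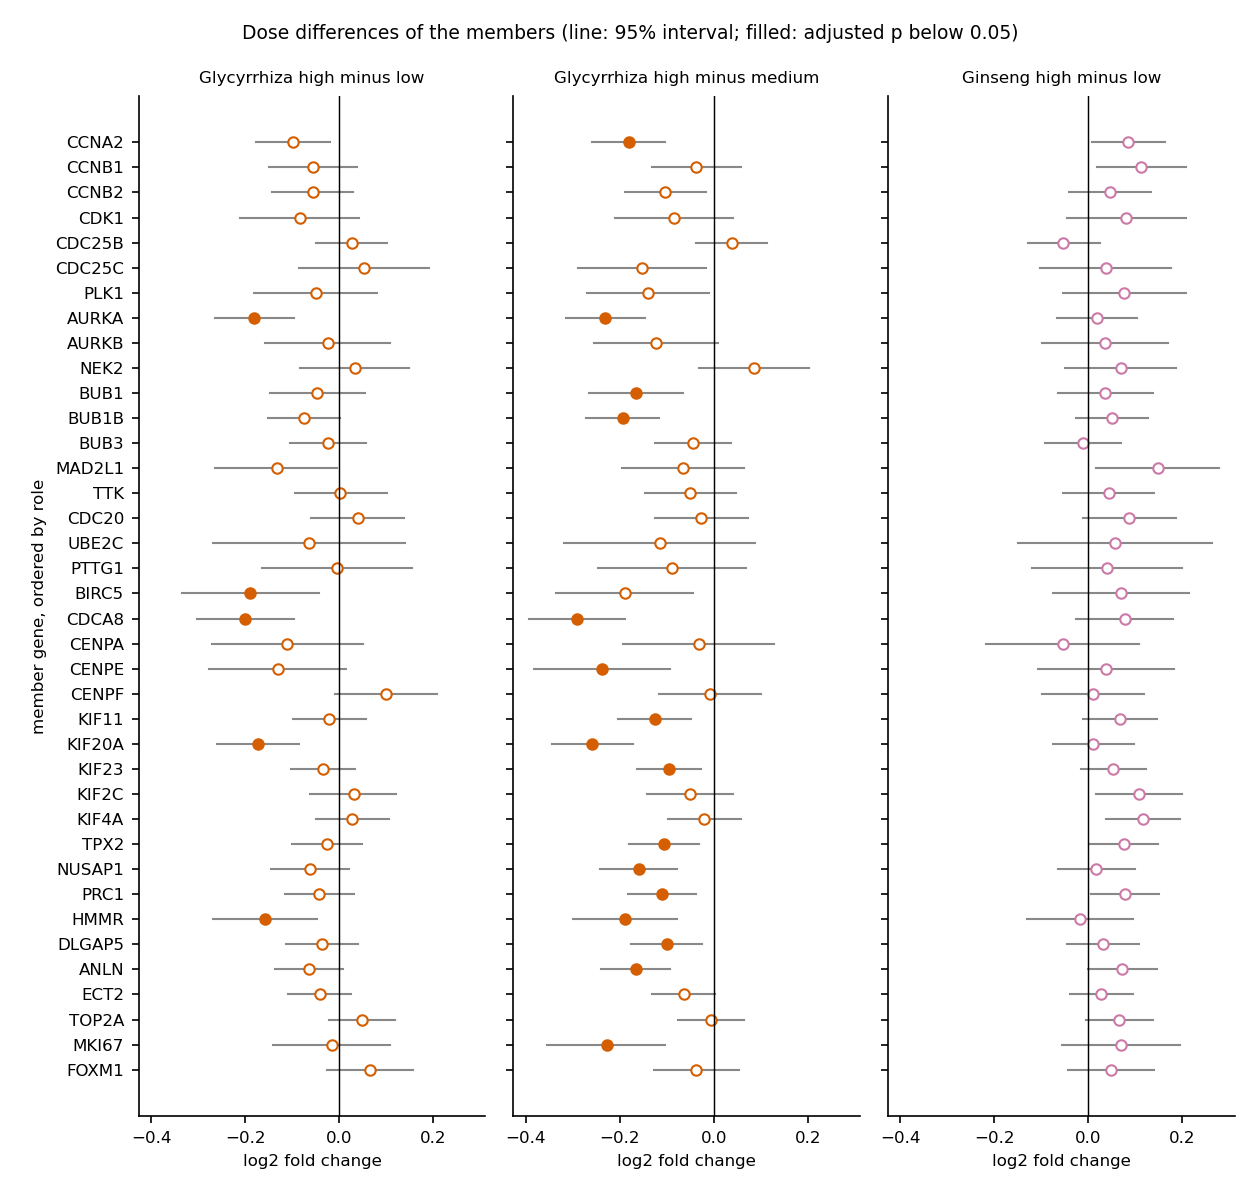
Log2 fold change of each of the 38 members with its 95% confidence interval, for Glycyrrhiza high minus low dose, Glycyrrhiza high minus medium dose and Ginseng high minus low dose; filled points have an adjusted p below 0.05. Filled points lie to the left of 0 in the Glycyrrhiza panels, 5 and 16 in number, and the Ginseng panel has 0.

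Between the medium and low doses 0 of 38 members were called in each of the 6 extracts, by edgeR and by DESeq2. Of all tested genes, 0.00608% were called with Palmul-tang, Sibjeondaebo-tang and Atractylodes, and 0.0% with Poria, Glycyrrhiza and Ginseng. The members' medians were between 0.037 (Poria) and 0.067 (Glycyrrhiza), and at an unadjusted p below 0.05 the higher members numbered 3, 10, 5, 4, 11 and 3 with the extracts in the order Palmul-tang, Sibjeondaebo-tang, Poria, Atractylodes, then Glycyrrhiza, then Ginseng, and 1 was lower in Poria. Between the high and medium doses 0 members were called with Palmul-tang (0.0669% of all tested genes), Sibjeondaebo-tang (0.809%), Poria (0.578%), Atractylodes (1.45%) and Ginseng (1.04%). At an unadjusted p below 0.05 these had 1, 4, 3, 0 and 2 members higher and 0, 7, 0, 0 and 1 lower. DESeq2 called 2 members with Sibjeondaebo-tang and 0 with the other 4. Without Sibjeondaebo-tang high library 1, edgeR called 3 members there, and 1 without high library 2.

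At matched doses of 500 µg/mL the decoctions differed for 0 of 38 members by edgeR and by DESeq2 (0.0% of all tested genes called), with 2 higher with Palmul-tang at an unadjusted p below 0.05. The 95% intervals of the differences ran from -0.22 to 0.36 on the log2 scale. Between Poria and Atractylodes at 500 µg/mL 1 member was called, with 0.979% of all tested genes. CDC25B, a phosphatase that starts CDK1 activation (ENSG00000101224, chromosome 20, 3786772 to 3806121, plus strand), was at 153, 147 and 145 CPM with Poria and at 135, 135 and 127 CPM with Atractylodes. These libraries did not overlap, with a log2 difference of 0.16 ± 0.04 (adjusted p = 0.015). It was 0.14 (adjusted p = 0.197) without Poria high library 1 and 0.13 (adjusted p = 0.185) without Atractylodes high library 3.

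Against vehicle more members, and more of all tested genes, were called than between the doses of extracts other than Glycyrrhiza, in both directions. All these comparisons share the 3 vehicle libraries, and their counts are not independent of each other. At the high dose 12 members were higher and 1 lower with Palmul-tang (11.7% and 9.95% of all tested genes), 13 and 4 with Sibjeondaebo-tang (14.2% and 13.1%), 10 and 5 with Poria (13.4% and 11.6%), 8 and 4 with Atractylodes (11.9% and 10.6%), 6 and 6 with Glycyrrhiza (18.8% and 15.5%) and 12 and 1 with Ginseng (10.3% and 8.57%). At the medium dose the counts were 10 higher and 2 lower (21.1% of all tested genes called in either direction), 12 and 2 (20.1%), 7 and 4 (20.6%), 7 and 4 (20.7%), 14 and 0 (13.1%) and 4 and 0 (10.1%) in the same order. At the low dose they were 5 and 5 (20.4%), 6 and 6 (20.0%), 3 and 6 (18.5%), 5 and 8 (22.4%), 8 and 1 (17.6%) and 4 and 1 (13.0%). The member shares were near those of all tested genes for high dose Glycyrrhiza (15.8% higher, 15.8% lower) and medium (10.5%) and low dose Ginseng (13.2%). At the other high doses 21.1% to 34.2% of members were higher, above all tested genes, and 2.63% to 13.2% lower, near or below them. At the remaining medium and low doses 23.7% to 36.8% of members were called, against 13.1% to 22.4% of all tested genes.

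These counts changed with the mitochondrial share of counts in the model and with single vehicle libraries left out. That share was 8.91% to 11.63% in vehicle, against a median of 7.49% in the 54 treated libraries. The share and the treatment therefore cannot be fully told apart here, and a lost call cannot be assigned to either. Of 206 member calls over the 18 comparisons, 65 passed the threshold when that share was a covariate, 101 without vehicle library 3, 149 without vehicle library 2 and 189 without vehicle library 1. With that covariate the high dose counts were 4, 6, 5, 5, 9 and 7 in the order above, the medium dose counts 4, 3, 3, 2, 8 and 3 and the low dose counts 2, 1, 5, 2, 2 and 4. These counts include members that were not called without the covariate. Without vehicle library 3 the high dose count was 9 for Poria, 5 for Atractylodes and 8 for Ginseng, which was also 8 without vehicle library 2 or Ginseng high library 1. In the medium dose comparisons, leaving out vehicle library 3 gave 7 with Sibjeondaebo-tang, 5 with Poria and 2 with Atractylodes, leaving out vehicle library 2 gave 8 with Glycyrrhiza and 1 with Ginseng, and leaving out vehicle library 1 gave 7 with Ginseng. Leaving out Sibjeondaebo-tang medium library 1 or 3 gave 9, and Glycyrrhiza medium library 1 or 3 gave 8. In the low dose comparisons leaving out vehicle library 3 gave 4, 2, 2, 5, 3 and 1, leaving out vehicle library 2 gave 2 with Ginseng, and leaving out low dose library 1 gave 5 with Sibjeondaebo-tang, 5 with Poria and 2 with Ginseng, which also had 2 without its low library 3.

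Of the genes of mitotic entry, CDK1 and CCNB1 were higher than vehicle at each high dose, while CCNA2 was above the vehicle mean in 5 and CCNB2 in 2 of the 18 treated groups. CDK1 (ENSG00000170312, chromosome 10, 60778331 to 60794852, plus strand) was at 81.3, 73.7 and 70.3 CPM in vehicle and at 77.7 to 110 CPM in the 54 treated libraries, with a median of 92.0 CPM. At the high doses it was at 110, 93.4 and 91 CPM with Palmul-tang, 103, 106 and 95.1 CPM with Sibjeondaebo-tang and 89.7, 87.3 and 81.8 CPM with Glycyrrhiza, all above the 3 vehicle libraries. The log2 fold changes were 0.38 ± 0.06 with Palmul-tang (adjusted p = 1.7e-05), 0.43 ± 0.06 with Sibjeondaebo-tang (adjusted p = 1.1e-06), 0.31 with Poria (adjusted p = 0.00023), 0.33 with Atractylodes (adjusted p = 9.7e-05), 0.20 with Glycyrrhiza (adjusted p = 0.013) and 0.28 with Ginseng (adjusted p = 0.0016). The Glycyrrhiza value was 0.15 (adjusted p = 0.111) without vehicle library 3 and 0.17 (adjusted p = 0.0677) without Glycyrrhiza high library 1. With that share in the model the CDK1 call was kept in Sibjeondaebo-tang (0.28, adjusted p = 0.00686) and Atractylodes (0.20, adjusted p = 0.0444), and lost at the other 4 high doses.

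CCNB1, cyclin B1, the main CDK1 partner in mitosis (ENSG00000134057, chromosome 5, 69167010 to 69178245, plus strand), was at 151, 132 and 127 CPM in vehicle. It was at 169, 163 and 165 CPM with high dose Palmul-tang, 167, 170 and 155 CPM with Sibjeondaebo-tang and 160, 161 and 163 CPM with Poria, above vehicle in each library. With Glycyrrhiza it was at 149, 146 and 151 CPM, which overlaps the highest vehicle library. Log2 fold changes were 0.28 ± 0.05 (adjusted p = 2e-05), 0.26 (adjusted p = 2.9e-05) and 0.24 (adjusted p = 0.00013) for the first 3, 0.18 (adjusted p = 0.0037) for Atractylodes, 0.12 (adjusted p = 0.038) for Glycyrrhiza and 0.16 (adjusted p = 0.011) for Ginseng. Without vehicle library 3 the last 3 fell short, at 0.13 (adjusted p = 0.0769), 0.07 (adjusted p = 0.332) and 0.11 (adjusted p = 0.153). None of the 6 high dose calls of CCNB1 passed with that share in the model.

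TOP2A, the topoisomerase that untangles sister chromatids (ENSG00000131747, chromosome 17, 40388516 to 40417950, minus strand), was at 432, 407 and 424 CPM in vehicle and at 426 to 514 CPM over the 54 treated libraries, with a median of 470 CPM. With high dose Palmul-tang it was at 494, 492 and 488 CPM (log2 fold change 0.22 ± 0.04, adjusted p = 6.8e-06), with Glycyrrhiza at 499, 484 and 447 CPM (0.18, adjusted p = 6.5e-05) and with Ginseng at 489, 466 and 479 CPM (0.18, adjusted p = 0.00016). These 9 libraries were all above vehicle. With Poria it was at 441, 447 and 455 CPM, also above vehicle, but this difference did not pass the threshold. The TOP2A calls of the other 5 extracts passed without each library in turn, and also after adding the mitochondrial share to the model, at 0.12 to 0.14.

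NEK2, a kinase that separates centrosomes (ENSG00000117650, chromosome 1, 211658657 to 211675630, minus strand), was at 26.2, 26.3 and 26.0 CPM in vehicle, and the lowest of the 54 treated libraries was at 26.7 CPM. These 54 treated libraries and the vehicle libraries thus did not overlap at any dose, although the gap was small and the vehicle libraries lay close together. High dose Sibjeondaebo-tang had 33.1, 31.4 and 32.8 CPM (log2 fold change 0.31, adjusted p = 7.3e-05) and Glycyrrhiza 33.1, 30.3 and 30.5 CPM (0.26, adjusted p = 0.00051). KIF2C, a kinesin that frees wrongly attached microtubules (ENSG00000142945, chromosome 1, 44739818 to 44767767, plus strand), was at 74.8, 69.7 and 67.2 CPM in vehicle. It was at 83.8, 83.2 and 80.4 CPM with high dose Palmul-tang (0.23 ± 0.05, adjusted p = 0.00029) and at 85.3, 81.2 and 79.1 CPM with Ginseng (0.21, adjusted p = 0.00063), above all vehicle libraries. With the mitochondrial share in the model the KIF2C calls were lost at the high doses of Palmul-tang (0.14, adjusted p = 0.123), Sibjeondaebo-tang, Poria and Atractylodes and kept with Glycyrrhiza and Ginseng, and the NEK2 calls were kept with Sibjeondaebo-tang (0.22, adjusted p = 0.0389) and Glycyrrhiza (0.20, adjusted p = 0.0161) and lost at the other 4. The NEK2 difference with Poria was 0.17 (adjusted p = 0.024), and 0.12 (adjusted p = 0.176) without Poria high library 3.

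Among checkpoint and passenger genes, MAD2L1 was at 73.0, 70.8 and 62.0 CPM in vehicle and at 93, 87.1 and 86.1 CPM with high dose Palmul-tang, 88.5, 93.3 and 84.2 CPM with Sibjeondaebo-tang and 85.1, 81.5 and 85.4 CPM with Poria. These 9 libraries lay above vehicle, with log2 fold changes of 0.37 ± 0.07 (adjusted p = 3.4e-05), 0.37 (adjusted p = 2.2e-05) and 0.29 (adjusted p = 0.00058). With Ginseng it was 0.19 (adjusted p = 0.033), and 0.12 (adjusted p = 0.302) without Ginseng high library 1. The MAD2L1 calls were lost at all 5 high doses where they were made when the mitochondrial share was in the model, at 0.18 (adjusted p = 0.117) for Palmul-tang, 0.20 (adjusted p = 0.0625) for Sibjeondaebo-tang, 0.13 (adjusted p = 0.222) for Poria, 0.12 (adjusted p = 0.26) for Atractylodes and 0.06 (adjusted p = 0.624) for Ginseng.

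BIRC5 was at 70.1, 67.7 and 63.9 CPM in vehicle and at 91.8, 81.3 and 84.9 CPM with high dose Palmul-tang (0.35 ± 0.07, adjusted p = 0.00033), with no overlap. With high dose Glycyrrhiza BIRC5 was at 73.2, 70.7 and 68.8 CPM, which overlaps vehicle. BUB1B was at 105, 99.9 and 108 CPM in vehicle and at 117, 121 and 114 CPM with high dose Ginseng (0.17, adjusted p = 0.0012). With that share in the model the BIRC5 and BUB1B calls were kept at the high doses of Palmul-tang, Sibjeondaebo-tang, Poria and Ginseng, at 0.34 to 0.42 for BIRC5 and 0.19 to 0.23 for BUB1B. The BIRC5 call with high dose Atractylodes was kept too, at 0.29 (adjusted p = 0.0235).

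**Figure D4:**
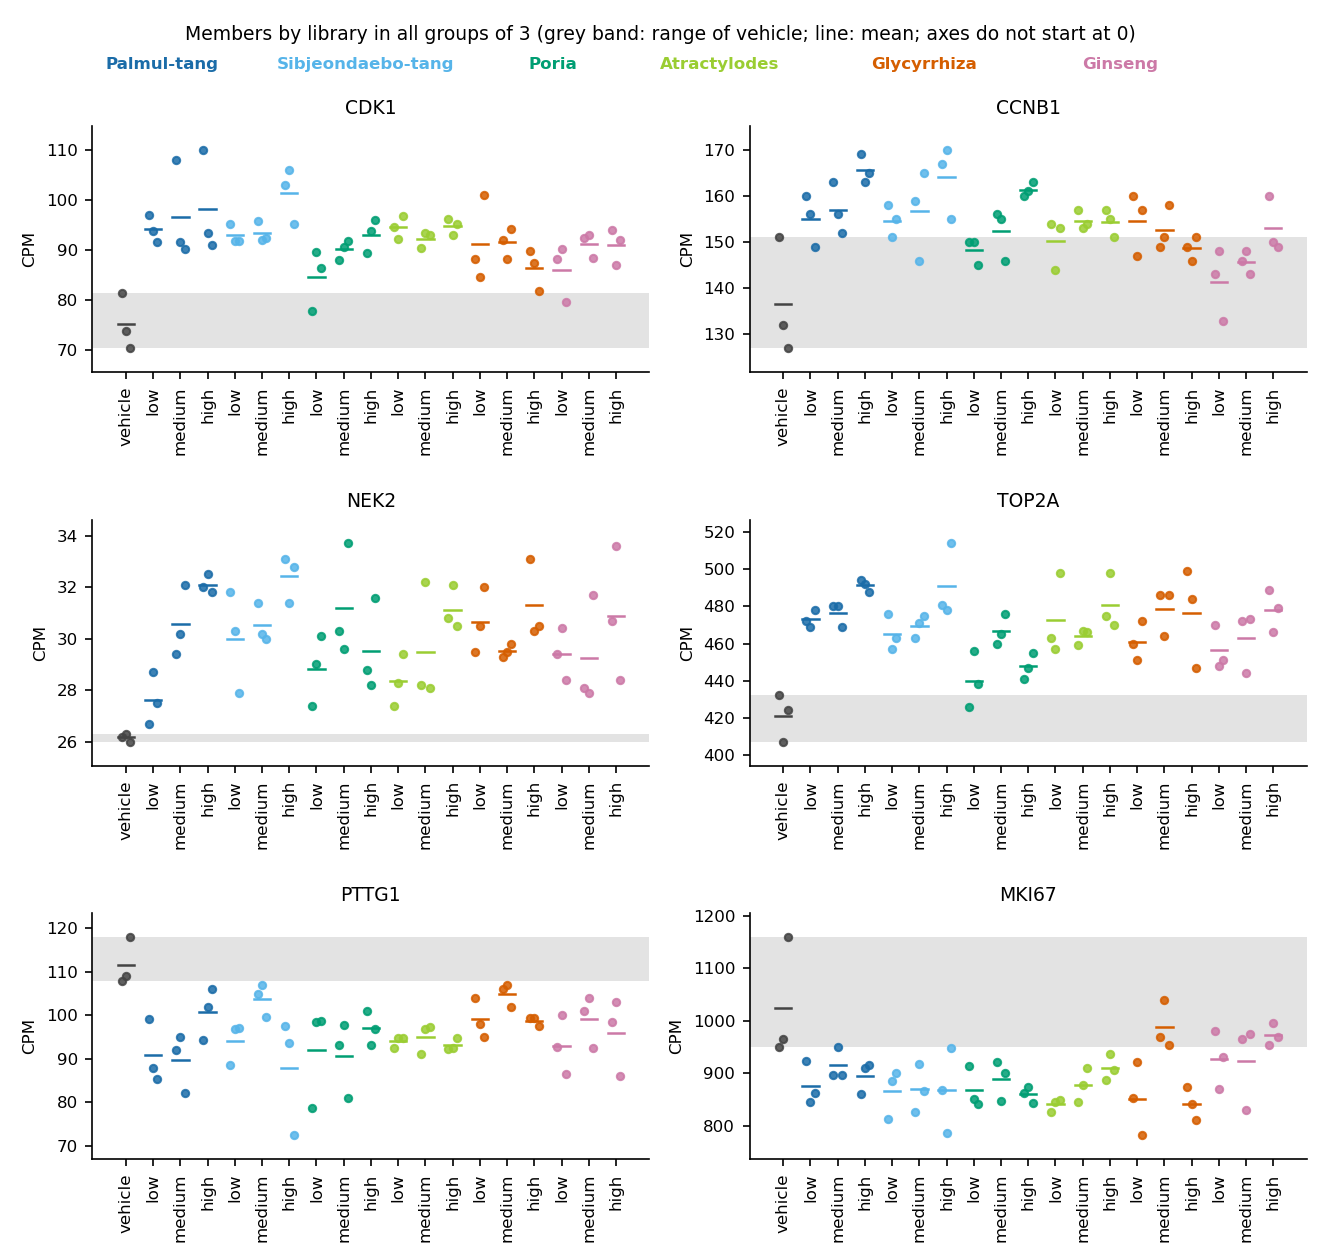
CPM of CDK1, CCNB1, NEK2, TOP2A, PTTG1 and MKI67 in each library of the 19 groups with 3 libraries; the grey band is the range of the vehicle libraries, and the vertical axes do not start at 0. NEK2 lies above the band and PTTG1 below it in all 54 treated libraries, and vehicle library 3 is the highest of all libraries for MKI67 at 1160 CPM.

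Other members were lower than vehicle. PTTG1, securin, which restrains separase (ENSG00000164611, chromosome 5, 160421822 to 160428744, plus strand), was at 108, 109 and 118 CPM in vehicle, and the highest of the 54 treated libraries was at 107 CPM. High dose Sibjeondaebo-tang had 97.6, 93.6 and 72.4 CPM, with library 3 far below the others, and a log2 fold change of -0.35 ± 0.08 (adjusted p = 0.00081). Atractylodes had 92.3, 92.4 and 94.8 CPM (-0.26, adjusted p = 0.013). Ginseng had 98.5, 103 and 86 CPM (-0.22, adjusted p = 0.046), and missed the threshold without each vehicle library (-0.24 to -0.18) and without its library 1 (-0.24, adjusted p = 0.0757) or 3 (-0.15, adjusted p = 0.266). The Atractylodes value was -0.22 (adjusted p = 0.0852) without vehicle library 3. With the mitochondrial share in the model the Ginseng call was lost (-0.24, adjusted p = 0.0852), and the Sibjeondaebo-tang and Atractylodes calls were kept.

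MKI67 (ENSG00000148773, chromosome 10, 128096659 to 128126385, minus strand) was at 950, 966 and 1160 CPM in vehicle (1020 ± 114, SD, n = 3) and at 782 to 1040 CPM in the treated libraries, with a median of 886 CPM. Vehicle library 3 stood well above the other 2. Glycyrrhiza at the high dose had 874, 841 and 812 CPM, below all vehicle libraries, and a log2 fold change of -0.28 (adjusted p = 0.00032) that passed without each library in turn and with that share in the model (-0.23, adjusted p = 0.00973). Without vehicle library 3 the other high dose calls were lost, at -0.10 for Palmul-tang (adjusted p = 0.34), -0.14 for Sibjeondaebo-tang (adjusted p = 0.115), -0.16 for Poria (adjusted p = 0.0814) and -0.07 for Atractylodes (adjusted p = 0.498). The same calls were also lost with the mitochondrial share in the model.

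CENPE (ENSG00000138778, chromosome 4, 103105806 to 103198409, minus strand) was at 73.6, 74.7 and 82.8 CPM in vehicle and at 61.8, 59.6 and 62.8 CPM with high dose Poria, a log2 fold change of -0.33 ± 0.07 (adjusted p = 0.00051). With high dose Glycyrrhiza it was at 66.1, 63.6 and 58.7 CPM (-0.29, adjusted p = 0.0011). Neither group overlapped vehicle, and both calls passed without each library in turn and with the covariate. KIF20A was at 61.9, 65.2 and 68.2 CPM in vehicle, and high dose Glycyrrhiza was below it by 0.24 ± 0.04 (adjusted p = 1.3e-05) on the log2 scale, again with no overlap. AURKA (-0.17, adjusted p = 0.0013) and CCNA2 (-0.16, adjusted p = 0.0014) were lower than vehicle with high dose Glycyrrhiza, also without each library in turn. CDCA8 was lower there by 0.15 (adjusted p = 0.024), a call lost without vehicle library 1 (-0.13, adjusted p = 0.0854) or 2 (-0.12, adjusted p = 0.107) or Glycyrrhiza high library 1 (-0.14, adjusted p = 0.0636) or 2 (-0.13, adjusted p = 0.1). With the covariate the KIF20A, AURKA and CCNA2 calls were kept and the CDCA8 call was lost (-0.14, adjusted p = 0.0656).

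The rest of the pathway was followed in 5 lists of genes, all of whose genes were tested. They hold 73 other mitosis genes such as kinetochore and condensin subunits, 14 subunits of the anaphase promoting complex, 22 transcription regulators of G2/M, 15 brakes on the cell cycle and 30 genes of G1/S and replication. Between high and medium dose Glycyrrhiza, where 10.3% of all tested genes fell and 13.4% rose, 28 of the 73 other mitosis genes fell and 1 rose, with a median of -0.116, and without high dose library 3, 19 fell. KIF18B, a kinesin that shortens microtubules, fell by 0.29 (adjusted p = 2e-06) and LMNB1, a lamin of the nuclear envelope, by 0.22. CENPM, a centromere protein, fell by 0.31 and missed the threshold without medium library 1 (-0.23, adjusted p = 0.0789). Of the G1/S and replication genes 14 fell and 1 rose, with a median of -0.126. MCM6, a subunit of the replicative helicase, fell by 0.27 (adjusted p = 4.6e-07) and CCNE2, cyclin E2, by 0.45. Of the anaphase promoting complex 3 fell and 0 rose, but 1 fell without high library 3 or medium library 2, and of the regulators 5 fell and 2 rose, with 3 that fell without high library 3 or medium library 3 and 0 that rose without medium library 2.

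Between high and low dose Glycyrrhiza the counts were 10 lower and 3 higher for the other mitosis genes (median -0.046), 3 and 0 for the anaphase promoting complex (median -0.049), 4 and 2 for the regulators (median -0.029) and 11 and 2 for G1/S and replication (median -0.090). Of all tested genes 10.9% fell and 14.0% rose, and the 10 of 73 other mitosis genes that fell are near that share. Without a filter on low counts 6 of the other mitosis genes fell. The count of regulators that fell was 2 without Glycyrrhiza low library 2, low library 3 or high library 3. FBXO5, or EMI1, which inhibits the anaphase promoting complex, fell by 0.22 (adjusted p = 0.0022). TFDP2, a partner of E2F factors, fell by 0.36 (adjusted p = 4.7e-05), and LIN54, the DNA binding subunit of MuvB, rose by 0.31 (adjusted p = 8.6e-06). CDC6, which licenses replication origins, rose by 0.29 (adjusted p = 1e-07), against the direction of most of its list.

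Of the 15 brakes, 4 were higher and 4 lower between high and low dose Glycyrrhiza, where 14.0% of all tested genes rose and 10.9% fell. CDKN1A, the CDK inhibitor p21, was at 15.5, 14.3 and 16.5 CPM at the low dose, 15.3, 14.4 and 14.9 CPM at the medium dose and 29.1, 29.4 and 28.6 CPM at the high dose. The high dose libraries were far above those of both other doses and of vehicle (15.4, 14.4 and 14.5 CPM), a log2 fold change from the low dose of 0.91 ± 0.08 (adjusted p = 4.8e-13). CDKN2B, the CDK4 and CDK6 inhibitor p15, rose by 1.00 ± 0.08 (adjusted p = 7.4e-14). BTG2, an antiproliferative gene, was at 45.4, 45.9 and 43.5 CPM at the low dose and at 19.7, 22.3 and 21.8 CPM at the high dose, and fell by 1.08 ± 0.07 (adjusted p = 9.3e-18). The count of brakes that fell was 2 without high library 2, high library 3 or low library 3, and these 3 genes were called without each library. Between high and medium dose 6 of the 15 brakes rose and 2 fell, while 13.4% of all tested genes rose and 10.3% fell. There 4 rose without medium library 2, and 1 fell without high library 3.

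With Ginseng, between high and low dose, 5 of 30 G1/S and replication genes rose and 0 fell (median 0.102), 2 of 73 other mitosis genes rose, and 3 of 15 brakes fell (2 without high library 1, low library 1 or high library 3), where 2.52% of all tested genes were called in either direction. The 5 became 2 without Ginseng high library 1 or low library 1, 3 without high library 2 or low library 3, 8 without high library 3, 2 with no filter on low counts and 1 with the 6 libraries alone. The 2 other mitosis genes became 1 without high library 1, low library 2 or low library 3 and 0 with the 6 libraries alone. BTG2 fell by 0.32 (adjusted p = 0.002) and CCNG2, a cyclin G, by 0.30 (adjusted p = 0.003). CDKN1A had -0.34 (adjusted p = 0.019), and -0.25 (adjusted p = 0.157) without Ginseng high library 3. The members themselves had 0 calls there, as given above.

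**Figure D5:**
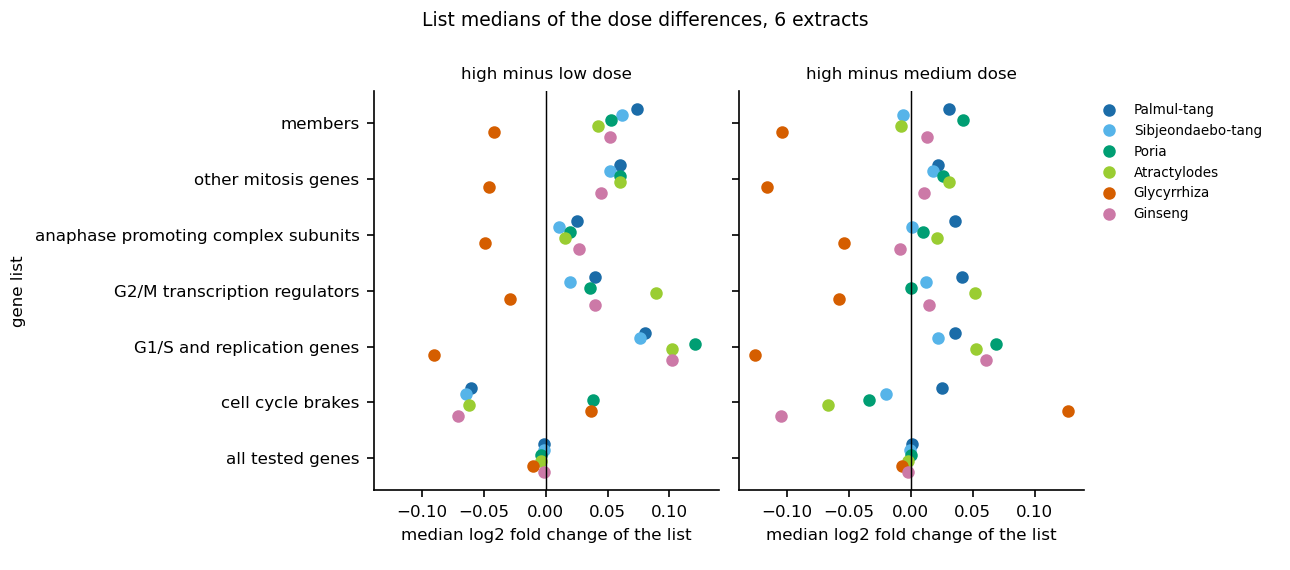
Median log2 fold change of the 38 members, the 5 other lists and all tested genes, for high minus low dose and high minus medium dose of the 6 extracts; each point is 1 list in 1 comparison. In Glycyrrhiza the members (-0.104), the other mitosis genes (-0.116) and the G1/S genes (-0.126) lie below 0 between high and medium dose, and the brakes (0.127) lie above it.

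Angelica had 1 library per dose, so its values have no replicate check and no test. The members' median log2 ratio to the vehicle mean was 0.098 at 320 µg/mL, 0.010 at 64 µg/mL and -0.027 at 12.8 µg/mL, with 30, 21 and 14 of 38 members above the vehicle mean. The median over all tested genes was 0.000, 0.006 and 0.003. CDK1 was at 95.1, 90.4 and 81.5 CPM from high to low dose, log2 ratios of 0.34, 0.27 and 0.12. KIF2C had ratios of 0.32, 0.23 and 0.14 and TOP2A of 0.27, 0.20 and 0.10, so these 3 genes were above the vehicle mean at each dose. PTTG1 was at 95, 91.8 and 93.5 CPM, below the 3 vehicle libraries. CENPE was at 67.2, 77.1 and 67.3 CPM, with the medium dose inside the vehicle range. NEK2 had ratios of 0.04, 0.19 and -0.02, so its low dose library was below the vehicle mean, unlike the 54 treated libraries with replicates.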

How the data were processed

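RNA from 60 HT29 libraries (strand-specific kit, 100 bp read pairs, per the labels' protocols) had been counted per gene. The deposited values are expected counts, made by the authors with FastQC 0.11.9, Trim Galore 0.6.5, STAR 2.7.3a and RSEM 1.3.3 on hg38 (GRCh38), per the submitters' processing notes. Expected counts divide reads between near-identical copies by probability. Between 7.7% and 9.78% of values per library were not whole and were rounded. The table's 213 columns of other samples were not used. The series text gives the vehicle as 2% DMSO where the labels give 0.1%.

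Libraries were grouped by label. A single edgeR 4.0.16 model (R 4.3.3) held the 57 libraries of the 19 groups of 3 (TMM factors 0.956 to 1.031, filterByExpr, quasi-likelihood test with 38 residual degrees of freedom), and 16445 genes were tested. Calls are genes with an adjusted p below 0.05, by Benjamini-Hochberg, in each of 42 comparisons. Gene coordinates are those of GENCODE 29. The CPM behind each value rests on 19.31 M to 29.62 M counts, and replicates correlated at 0.9865 to 0.9933. Angelica ratios used a prior count of 2.

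The members, lists and comparisons were chosen with earlier results of these data known. All members could be named. Values per library are given for up to 6 members per extract by adjusted p, between doses and against vehicle, and up to 4 called genes per other list. CCNB1, CENPE, MKI67, PTTG1 and others outside these ranks in some comparisons are described side by side, chosen after their values were seen, as were the members with a medium dose difference. Same-numbered replicates were not paired by the labels. Alternatives were the replicate block, DESeq2 1.42.0, RLE scaling, all genes with no low-count filter, the libraries of a comparison alone and each library left out. Added later were the high against medium comparisons and the mitochondrial share as a covariate. The fit was tested on simulated data with the same spread for every gene and with changes larger than those of the members. That test cannot show how well changes of the members' size are recovered.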

Additional observations from a re-analysis of the deposited data

Results flagged for a closer look

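For 5 members the change between high and low dose differed between Glycyrrhiza and Ginseng by the test of that difference (edgeR quasi-likelihood, adjusted within the comparison). All 5 were lower with Glycyrrhiza, against 4.85% of all tested genes lower and 8.08% higher. CDCA8 differed by -0.28 on the log2 scale, and the call was lost without Glycyrrhiza low library 1. MAD2L1 also differed by -0.28, and missed the threshold without Ginseng high library 1 (-0.21), Ginseng low library 3 (-0.24), Glycyrrhiza high library 3 (-0.24) or Glycyrrhiza low library 3 (-0.21). AURKA differed by -0.20, and missed it without Glycyrrhiza high library 1 (adjusted p = 0.0551), Glycyrrhiza low library 1 (-0.18) or Ginseng low library 3 (-0.17). CCNA2 differed by -0.18, and missed it without 5 of the 12 libraries left out in turn, at -0.17 to -0.16. KIF20A differed by -0.18, and missed it without 8 of the 12 libraries (adjusted p of 0.0539 to 0.0901). The doses of the extracts differ, and the part of dose in these differences was not tested.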

How the results depend on the processing

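The count of members called kept within 1.5 times of its reported value under RLE scaling in all 42 comparisons. No member call changed sign under any alternative. Of 206 calls against vehicle, 204 passed with DESeq2, 162 with no filter on low counts, 132 with the libraries of the comparison alone and 65 when the mitochondrial share was a covariate (chosen after seeing the data). Of 37 calls among treated groups the numbers were 36, 24, 30 and 37. The cause of the losses was not tested.

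With no filter the count was 1 for Poria high minus low, 0 for Atractylodes high minus low, 1 for Glycyrrhiza medium minus low, 4 for Sibjeondaebo-tang high minus medium, 1 for Palmul-tang against Sibjeondaebo-tang, 0 for Poria against Atractylodes and 3 for the difference in dose change between Glycyrrhiza and Ginseng. DESeq2 gave 1 for Poria high minus low and 2 for Sibjeondaebo-tang high minus medium. With the libraries of the comparison alone the count was 0 for Atractylodes high minus low and 3 for the Glycyrrhiza and Ginseng difference. Against vehicle it was then 9 for Sibjeondaebo-tang and 8 for Ginseng at the high dose, 6 for Sibjeondaebo-tang, 7 for Poria, 9 for Glycyrrhiza and 1 for Ginseng at the medium dose, and 1 for Poria, 8 for Atractylodes and 2 for Ginseng at the low dose. With the mitochondrial share as a covariate it was 1 for Sibjeondaebo-tang high minus medium. Against vehicle it was then 4 (Palmul-tang), 6 (Sibjeondaebo-tang), 5 (Poria), 5 (Atractylodes) and 7 (Ginseng) at the high dose, 4, 3, 3 and 2 for the first 4 and 8 for Glycyrrhiza at the medium dose, and 2, 1, 5, 2 and 2 for the first 4 and Glycyrrhiza at the low dose.

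The labels give replicates numbers but no shared culture or day, and in no comparison did every pair of same-numbered libraries deviate together (correlation over 0.1). With the replicate number as a block the count was 1 for Palmul-tang and Poria high minus low, 1 for Sibjeondaebo-tang high minus medium, 14 for Poria and 8 for Ginseng low dose against vehicle, and 17 for Glycyrrhiza high minus medium, and all 206 and 37 calls passed.

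Leaving out each library in turn gave 0 to 1 members for Atractylodes and Ginseng high minus low, 2 to 5 for Glycyrrhiza high minus low, 0 to 3 for Sibjeondaebo-tang high minus medium, 9 to 14 for Glycyrrhiza high minus medium, 0 to 1 for Poria against Atractylodes, 6 to 11 for Glycyrrhiza against Ginseng and 1 to 5 for the difference in their dose changes. Against vehicle, with the extracts in set order (Palmul-tang, Sibjeondaebo-tang, Poria, Atractylodes, then Glycyrrhiza, then Ginseng), the ranges were 9 to 15, 14 to 18, 9 to 16, 5 to 12, 9 to 12 and 8 to 12 at the high dose, 8 to 12, 7 to 13, 5 to 11, 2 to 11, 8 to 11 and 1 to 7 at the medium dose, and 4 to 12, 2 to 14, 2 to 11, 5 to 14, 3 to 9 and 1 to 7 at the low dose. Without 1 library a group of 2 is assumed to vary like the others. Vehicle levels of the members ran down to 15.9 CPM for CDC25C; how depth limits each member was not compared.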
